A study of Mus musculus with 2 samples.

Results

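Broad peaks at the ends of protein-coding genes were studied in a map of trimethylated lysine 4 of histone H3 (H3K4me3) from cells labelled as mouse enteric neurons. A peak was taken when it was at least 3000 bp wide and overlapped, by 1 bp or more, the window of 1 kb to each side of either end of an mm10 RefSeq protein-coding gene model. Of the 29924 peaks in the list, 639 met this rule, among 16152 peaks at protein-coding gene ends and 795 peaks of at least 3000 bp. The other 156 wide peaks lay away from protein-coding gene ends. The 639 peaks touched the ends of 750 of 21887 protein-coding genes (3.43%), or 5.58% of the 13431 genes with a peak of any width at an end. Any peak at an end was found at 61.4% of protein-coding genes.

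The mark was mapped by ChIP-seq, the sequencing of DNA from immunoprecipitated chromatin, in cells labelled as sorted NOS1+ neurons of the mouse small intestine. NOS1, the neuronal nitric oxide synthase, marks the nitrergic neurons that relax gut smooth muscle. Nos1 had no peak at an end of its model, and neither had Vip, Cartpt, Adcyap1 and Kcnab1, so 5 of 12 nitrergic markers were without one. Peaks inside these models and over 1 kb from their ends were not counted, and the identity of the cells was not tested. The glial factor genes Sox10, Foxd3, Sox2 and Sox8 had broad peaks, and how many cells of each type the sort held was not tested. There was 1 H3K4me3 library and 1 input chromatin library, with no strain, age, genotype or treatment in the labels and no second group to compare. The peak list of the single H3K4me3 library is the source of every value here, so no value has a replicate check, and the depth of the libraries is unknown.

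H3K4me3 is written by SET1 and MLL methyltransferases and lies on the nucleosomes around active and poised promoters, usually as a short domain that starts near the transcription start site. In many tissues a small set of genes carries much longer domains, and these genes often include regulators of the identity of the cell. CpG islands, stretches of promoter DNA rich in the dinucleotide CG, recruit the enzymes that write the mark. The peaks were selected on their width and position, which are therefore given as a description, and the score of the same list, which was made from the same reads, is given in the same way.

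The promoters of 6 genes are shown because they stand at the start site of some of the widest peaks and differ in CpG density. Each line gives 120 bases up to the base before an annotated start site, 5′ to 3′ on the strand of the gene, with every CG in capitals (RefSeq, GRCm38.p6). Only stretches outside all protein-coding gene models were printed, which passed over genes with wider peaks whose start sites in the table lie inside a model, among them Pcdh7, Meis1, Meis2 and Amotl2. The stretches are chr8:57320863-57320982 on the plus strand for Hand2, chr5:32136352-32136471 on the plus strand for Fosl2, chr17:70853533-70853652 on the minus strand for Tgif1, chr14:84443443-84443562 on the plus strand for Pcdh17, chr14:21989602-21989721 on the minus strand for Zfp503 and chr14:105896820-105896939 on the minus strand for Spry2.
Hand2: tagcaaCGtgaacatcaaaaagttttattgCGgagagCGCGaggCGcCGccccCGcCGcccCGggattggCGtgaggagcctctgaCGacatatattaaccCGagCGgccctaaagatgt
Fosl2: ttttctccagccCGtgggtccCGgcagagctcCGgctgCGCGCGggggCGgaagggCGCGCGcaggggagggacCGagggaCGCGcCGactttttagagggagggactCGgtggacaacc
Tgif1: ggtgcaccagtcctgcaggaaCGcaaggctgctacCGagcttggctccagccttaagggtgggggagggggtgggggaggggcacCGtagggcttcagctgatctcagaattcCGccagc
Pcdh17: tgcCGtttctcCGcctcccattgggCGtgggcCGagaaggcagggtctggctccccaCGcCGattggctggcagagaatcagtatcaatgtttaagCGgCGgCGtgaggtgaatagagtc
Zfp503: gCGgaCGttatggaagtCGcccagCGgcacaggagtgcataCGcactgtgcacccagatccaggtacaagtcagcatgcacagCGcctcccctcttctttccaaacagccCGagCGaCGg
Spry2: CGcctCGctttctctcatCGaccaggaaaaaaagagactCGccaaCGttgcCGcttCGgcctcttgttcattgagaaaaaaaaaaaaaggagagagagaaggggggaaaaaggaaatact
Fosl2, which encodes an AP-1 factor, had 15 CG in the printed stretch and 32 in its 300-base promoter. Tgif1, a homeobox repressor gene of the TALE class, had 4 in the printed stretch and 20 in the promoter. Hand2 had 13 and 17, Pcdh17 had 9 and 26, Zfp503 had 9 and 19, and Spry2 had 7 and 28.

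CpG density was compared over all promoters that the RefSeq table gives, from 250 bases before to 50 bases after each start site. The table held 17492 of the 21887 genes (79.9%) and 570 of the 750 genes with a broad peak (76.0%), and for 499 of those 570 a start site lay in a broad peak. Start sites inside broad peaks had a median of 26 CG per 300 bases (interquartile range 16 to 35, 613 promoters). The median was 23 for start sites in peaks of 1 to 3 kb, 16 in peaks under 1 kb and 3 where no peak covered the start site. GC content had medians of 66.3%, 63.3%, 58.7% and 48.7% in the same order. The share of promoters with an observed to expected CpG ratio over 0.6 was 80.4% in broad peaks and 80.5% in peaks of 1 to 3 kb, against 59.5% in peaks under 1 kb and 13.1% without a peak. Within the broad peaks, promoters of genes in the transcription factor lists used below had a median of 25 CG and those of all other genes 26. CpG count did not climb with width: its median was 26.5 for peaks of 3 to 4 kb, 23 for 4 to 5 kb and 25 for 5 kb or more, with Spearman's rho of -0.12 across 504 genes of this one library. Slitrk6, a synapse organiser gene named after its values were seen, had only 4 CG in a promoter under a peak of 6080 bp.

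Short motifs were searched on both strands of the same 300 bases, and a match is a description of the letters only. The GC box core GGGCGG was in 74.6% of promoters with a start site in a broad peak, 70.2% of those in peaks of 1 to 3 kb and 46.2% of all promoters. TATAAA was in 8.32%, against 5.23% in peaks of 1 to 3 kb, 20.7% without a peak and 12.6% of all promoters. CCAAT was in 33.4%, against 38.2% of all. CACGTG, the E-box, was in 8.97% against 7.84% of all, TGACTCA, the AP-1 site, in 3.26% against 4.66%, and TGACGTCA, the CRE site, in 2.77% against 2.23%. In the printed stretches, GGGCGG was found at Hand2 and Fosl2, and CCAAT at Hand2 and Pcdh17.

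The width of the broad peaks had its median at 3520 bp (interquartile range 3218.5 to 4054 bp) and its maximum at 8862 bp. Width ranges include their lower limit and leave out the upper one. They were 3.96% of the peaks at gene ends and held 11.8% of the length those covered, 2.44 Mb in all. By width, 312 were under 3500 bp, 155 were from 3500 bp to 4 kb, 111 were 4 to 5 kb, 35 were 5 to 6 kb and 26 were wider. The members nearest the limit were at Erbb4 (3004 bp), Calm3, Usf2 with Lsr and Gm42517 (3005 bp each) and Clec2d (3006 bp). The nearest peaks that missed it were at Kif13a, Kcnj2, Cecr2 and Sinhcaf (2999 bp each) and Cald1 (2998 bp).

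Regulators of transcription were frequent among the widest peaks. The widest peak, 8862 bp with a score of 161, lay at an end of Pcdh7, which encodes a protocadherin, a cell adhesion protein (chr5:57714134-57722995). The second, 8613 bp with a score of 241, spanned the ends of Rhof, a small GTPase gene, and Setd1b, which encodes a methyltransferase that writes H3K4me3 itself. Then came Meis1 (8526 bp), Hand2 (8107 bp), Tbx3 (7495 bp), Meis2 (7438 bp) and Tshz1 with Zadh2 (7376 bp). Meis1 and Meis2 are TALE homeobox genes, Hand2 is a basic helix-loop-helix (bHLH) gene needed for enteric neurons, Tbx3 is a T-box gene and Tshz1 a zinc finger homeobox gene. Amotl2, a gene of the Hippo pathway, had 7223 bp and a score of 221, Fosl2 7052 bp and Fgf9, a growth factor gene, 6787 bp. Sox10 (6775 bp), Arhgef17 (6690 bp), Tgif1 (6676 bp) and Zfp516 (6527 bp) were also among the 15 widest. The 16 transcription factor lists hold set families and leave out the Zfp, Zkscan and Zscan genes. They also leave out other factor genes, such as Bcl11a (6457 bp) and Prdm16 (6040 bp). Of the 10 widest peaks, 6 lay at a gene of the 16 lists. That share was 16 of 50, 24 of 100 and 83 of all 639 (12.99%, exact 95% Clopper-Pearson interval 10.5 to 15.8%), while it was 8 among the 100 narrowest members and 3.69% of 15513 narrower peaks at gene ends.

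Width and score did not run together among the broad peaks. The score of the deposited list, a number per peak whose scale is not given in the sources used here, had a median of 163 (interquartile range 129 to 194) against 111 for narrower peaks at gene ends (29.9 to 176). Peaks of 2 to 3 kb had a median score of 169.8, those of 1 to 2 kb 157 and those under 1 kb 23.8. Spearman's rho of width and score was 0.68 over the 16152 peaks at gene ends and -0.06 over the 639, with all points from 1 library. The 26 peaks of 6 kb or more had the lowest median score of the 5 width ranges, 135, and the 312 under 3500 bp the highest, 167. Of the 100 highest-scored peaks at gene ends 3 were broad, and of the 1000 highest-scored 60. Broad peaks were 3.96% of all peaks at gene ends. Peaks at genes of the transcription factor lists were wider and scored lower than the other broad peaks, with medians of 3782 bp and 141 against 3486.5 bp and 165. Those other peaks include some at factor genes outside the lists, such as Patz1 (4564 bp, score 266).

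The 5 highest scores belonged to peaks of 3102 to 3626 bp. Tspyl1, of the nucleosome assembly protein family, had a score of 295 at 3513 bp, Rsrp1 288 at 3288 bp and Stk35, a kinase gene, 276 at 3126 bp. The peak between Taf11, a subunit gene of the general factor TFIID, and Anks1 had a score of 270.4, and that of Nabp2 and Rnf41 269.6. The lowest scores were at Hand1 (24.4), Hmcn2 (24.96), Il1rapl1 (31.5), Nkx2-3 (38.4) and Dlx1 (42.3), 3 of which, Hand1, Nkx2-3 and Dlx1, are developmental transcription factor genes. In all 90 of the 639 peaks (14.1%) scored above 212, the limit of the highest-scored 10% of peaks at gene ends. Of these 90, 9 lay at a gene of the transcription factor lists, against 12.99% of all 639. Another 122 (19.1%) scored below the median of all peaks at gene ends.

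**Figure D1:**
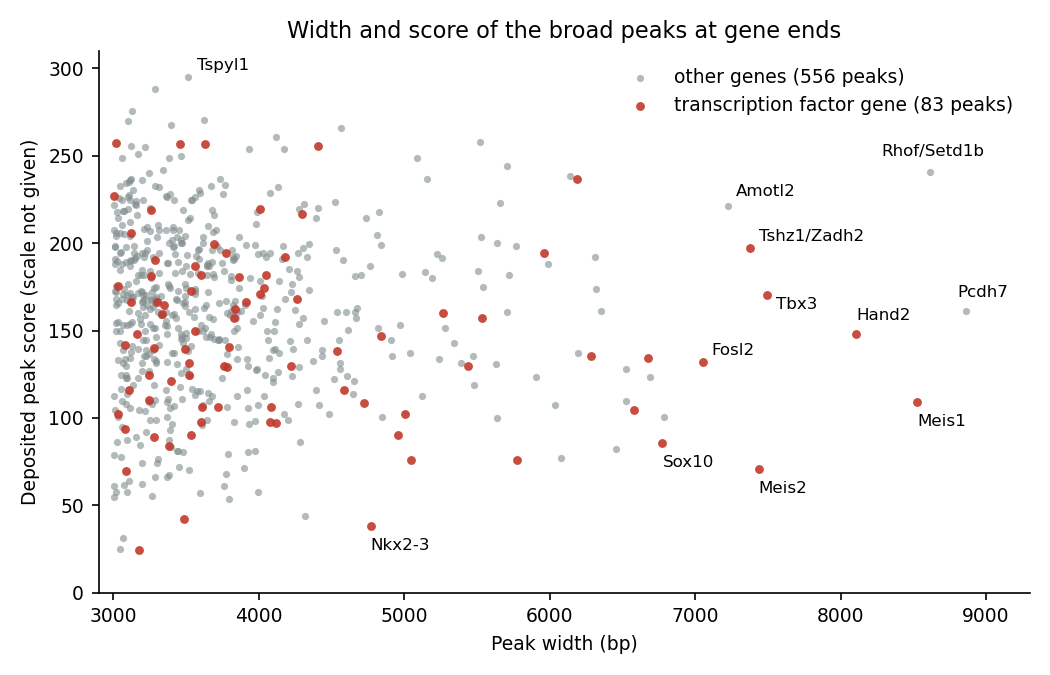
Width in bp against deposited score for the 639 broad peaks, with peaks at a gene of the 16 transcription factor lists in red and all others in grey. Peaks over 7 kb run from low scores, as at Meis2 (7438 bp, 70.8) and Meis1 (8526 bp, 109), to high ones, as at Amotl2 (7223 bp, 221) and at Rhof and Setd1b (8613 bp, 241), and the highest score is that of Tspyl1 (3513 bp, 295).

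Gene classes were counted with 51 lists, 41 of gene families and 10 of cell type markers, and each count is set beside the 3.43% of all protein-coding genes. Transcription factor genes of the 16 lists had a broad peak at 82 of 580 (14.1%, exact interval 11.4 to 17.2%), and at 19.7% of the 416 with a peak of any width. Genes in none of the lists had one at 520 of 16828 (3.09%), and 413 of the 639 peaks touched no listed gene. Members of a list share gene names and often neighbourhoods, so the exact intervals describe counts of genes in 1 library and cover no variation between animals or sorts.

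Among the transcription factor families, TALE homeobox genes had a broad peak at 5 of 18 (27.8%), among them Meis1, Meis2, Tgif1 and Pknox2. KLF and SP genes, zinc finger factors that bind GC-rich promoters, had one at 7 of 26, led by Klf3 (4299 bp), Klf9 (4180 bp), Sp3 (3632 bp, score 257) and Klf7 (3605 bp). SOX genes had 5 of 19: Sox10, Sox2 (4588 bp), Sox4 (4220 bp), Sox12 (3782 bp) and Sox8 (3107 bp). The mixed list of AP-1 factors and immediate early genes, the latter induced by stimuli within minutes, had 6 of 24. Fosl2, Atf3 (4084 bp), Egr1 (3866 bp) and Maf (3604 bp) were in front. The list of SMAD, NFI, RUNX, TEAD and AP-2 genes had 5 of 24, from Nfib (5958 bp) through Smad7 (3830 bp) and Smad3 (3761 bp) to Smad6 (3382 bp) and Tead3. ETS genes had 5 of 26, among them Erf (5269 bp), Etv1 (4843 bp), Etv6 (3350 bp) and Elf2 (3257 bp). The order of these families turned on the setting. With peaks that cover the end base, TALE genes had 3 of 18 (16.7%), SOX genes 4 of 19 (21.1%), and AP-1 and immediate early genes 5 of 24 (20.8%). At a limit of 2500 bp the shares were 38.9% for TALE, 42.1% for SOX, 42.3% for KLF and SP and 54.2% for AP-1 and immediate early genes.

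Most other transcription factor families ranged between the share of all genes and these. Forkhead genes had 6 of 44, with Foxo1 (6186 bp), Foxf1 (5048 bp), Foxd3 (5004 bp) and Foxp1 (4052 bp). Hox genes had 5 of 39 in only 4 peaks, because Hoxb8 and Hoxb7 share one of 5775 bp. Nuclear receptor genes had 6 of 47, led by Nr4a3 (6287 bp) and Thra (4408 bp, score 255), and Zbtb genes 5 of 40. The bHLH genes had 12 of 102, with Hand2, Bhlhe40 (5536 bp), Myc (5442 bp) and Mycn (4535 bp) in front, and homeobox genes outside the Hox, TALE and Pax lists had 12 of 129, among them Tshz1, Nkx2-3 (4771 bp) and Tshz2 (4261 bp). T-box genes had 2 of 16, GLI, GLIS and ZIC genes 1 of 11 (Glis2), Pax genes 0 of 9 (interval up to 33.6%) and GATA genes 0 of 6 (up to 45.9%), all too few to place. In contrast to these families, the large list of Zfp, Zkscan and Zscan genes had 8 of 421 (1.90%, interval 0.824 to 3.71%), although 348 of its genes had a peak of some width. Its 4 widest were Zfp516, Zfp503 (6355 bp), Zfp462 (5389 bp) and Zfp521 (4280 bp).

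Among signalling genes, receptors and ligands were counted separately, and the difference between them was not tested. Receptors of the Wnt, Fgf, Bmp, TGF-beta, hedgehog and GDNF families together with Notch and its ligands had 12 of 46 (26.1%, interval 14.3 to 41.1%), and the corresponding secreted ligands 5 of 77 (6.49%, interval 2.14 to 14.5%). The intervals overlap, and a peak of any width stood at 45 of the 46 receptors and 49 of the 77 ligands. At a limit of 4000 bp there were 2 of each, 4.35% of the receptors and 2.60% of the ligands. Gfra2 (5637 bp), the neurturin co-receptor gene, and Gfra1 (4657 bp), the GDNF co-receptor gene, were the widest of the receptors, before the Notch ligand gene Jag1 (3959 bp) and the Wnt receptor gene Fzd7 (3845 bp). Fgf9, Wnt5a (4096 bp), Tgfb3 (3750 bp) and Fgf11 (3677 bp) led the ligands. Feedback inhibitors, which damp the same pathways from inside the cell or at its surface, had 13 of 79 (16.5%, interval 9.06 to 26.5%), led by the receptor tyrosine kinase inhibitor genes Spry2 (6311 bp) and Spry1 (4768 bp), the phosphatase gene Dusp7 (4307 bp) and Spred1 (4230 bp). Axon guidance genes had 12 of 72 (16.7%), with Efna5 (5505 bp), the semaphorin co-receptor genes Nrp2 (5282 bp) and Nrp1 (5120 bp) and Sema6a (4539 bp). Cadherin and protocadherin genes had 7 of 92 (7.61%), with Pcdh7, Pcdh17 (6526 bp), Pcdh1 (3980 bp) and Cdh2 (3696 bp) in front. Collagens, laminins and integrins had 4 of 86, of which Col4a1 and Col4a2 share 1 peak (3228 bp), after Col5a1 (4238 bp) and before Lamc1 (3075 bp).

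Chromatin and splicing genes were counted next. Histone and DNA methylation regulators, which include demethylases, had 7 of 63 (11.1%), with a median score of 223 and a lowest of 159, at the demethylase gene Kdm2b. Setd1b, Kmt2e (5521 bp, score 258), Setd5 (4525 bp) and Kmt2c (3763 bp) were the widest, and the demethylase genes Kdm2a and Kdm3b were also among the 7. Acetylation regulators and remodellers had 8 of 88. Splicing factor genes had 10 of 97 (10.3%) with a median score of 208, led by Hnrnpdl (3865 bp), Mbnl2 (3726 bp), Ptbp1 (3599 bp) and Hnrnpk (3362 bp). The list of MAP, CaM, PKA, AMPK and PKC kinase genes had 8 of 76, led by Map3k11 (5988 bp).

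Lists of the excitable cell and of basic metabolism lay near or under the share of all genes. Cation channel genes had 6 of 138 (4.35%), among them the potassium channel genes Kcna6 (5908 bp), Kcna1 (5482 bp) and Kcnk5 (4651 bp) and the sodium channel gene Scn7a (4319 bp, score 44.2). Neurotransmitter receptor genes had 2 of 122 (1.64%), Grik3 (3451 bp) and Adrb1 (3268 bp), although 73 of the 122 had a peak. Genes of synaptic vesicles and exocytosis had 1 of 83 (1.20%), Stxbp5 (3085 bp), with a peak of some width at 73. Cytosolic ribosomal protein genes had 1 of 84 (Rpl7, 3824 bp) with a peak at 81, mitochondrial ribosomal protein genes 2 of 75 with a peak at 72, and respiratory chain genes 3 of 105 with a peak at 96. Solute carriers had 11 of 389 (2.83%), ubiquitin pathway genes 7 of 177, small GTPases 6 of 127, heat shock genes 4 of 73, histone genes 4 of 103 and cytokine genes 3 of 159. Keratins, claudins and mucins had 0 of 84 (interval up to 4.30%) with a peak at 20, and olfactory and vomeronasal receptors 0 of 1459 (up to 0.253%) with a peak at 4.

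**Figure D2:**
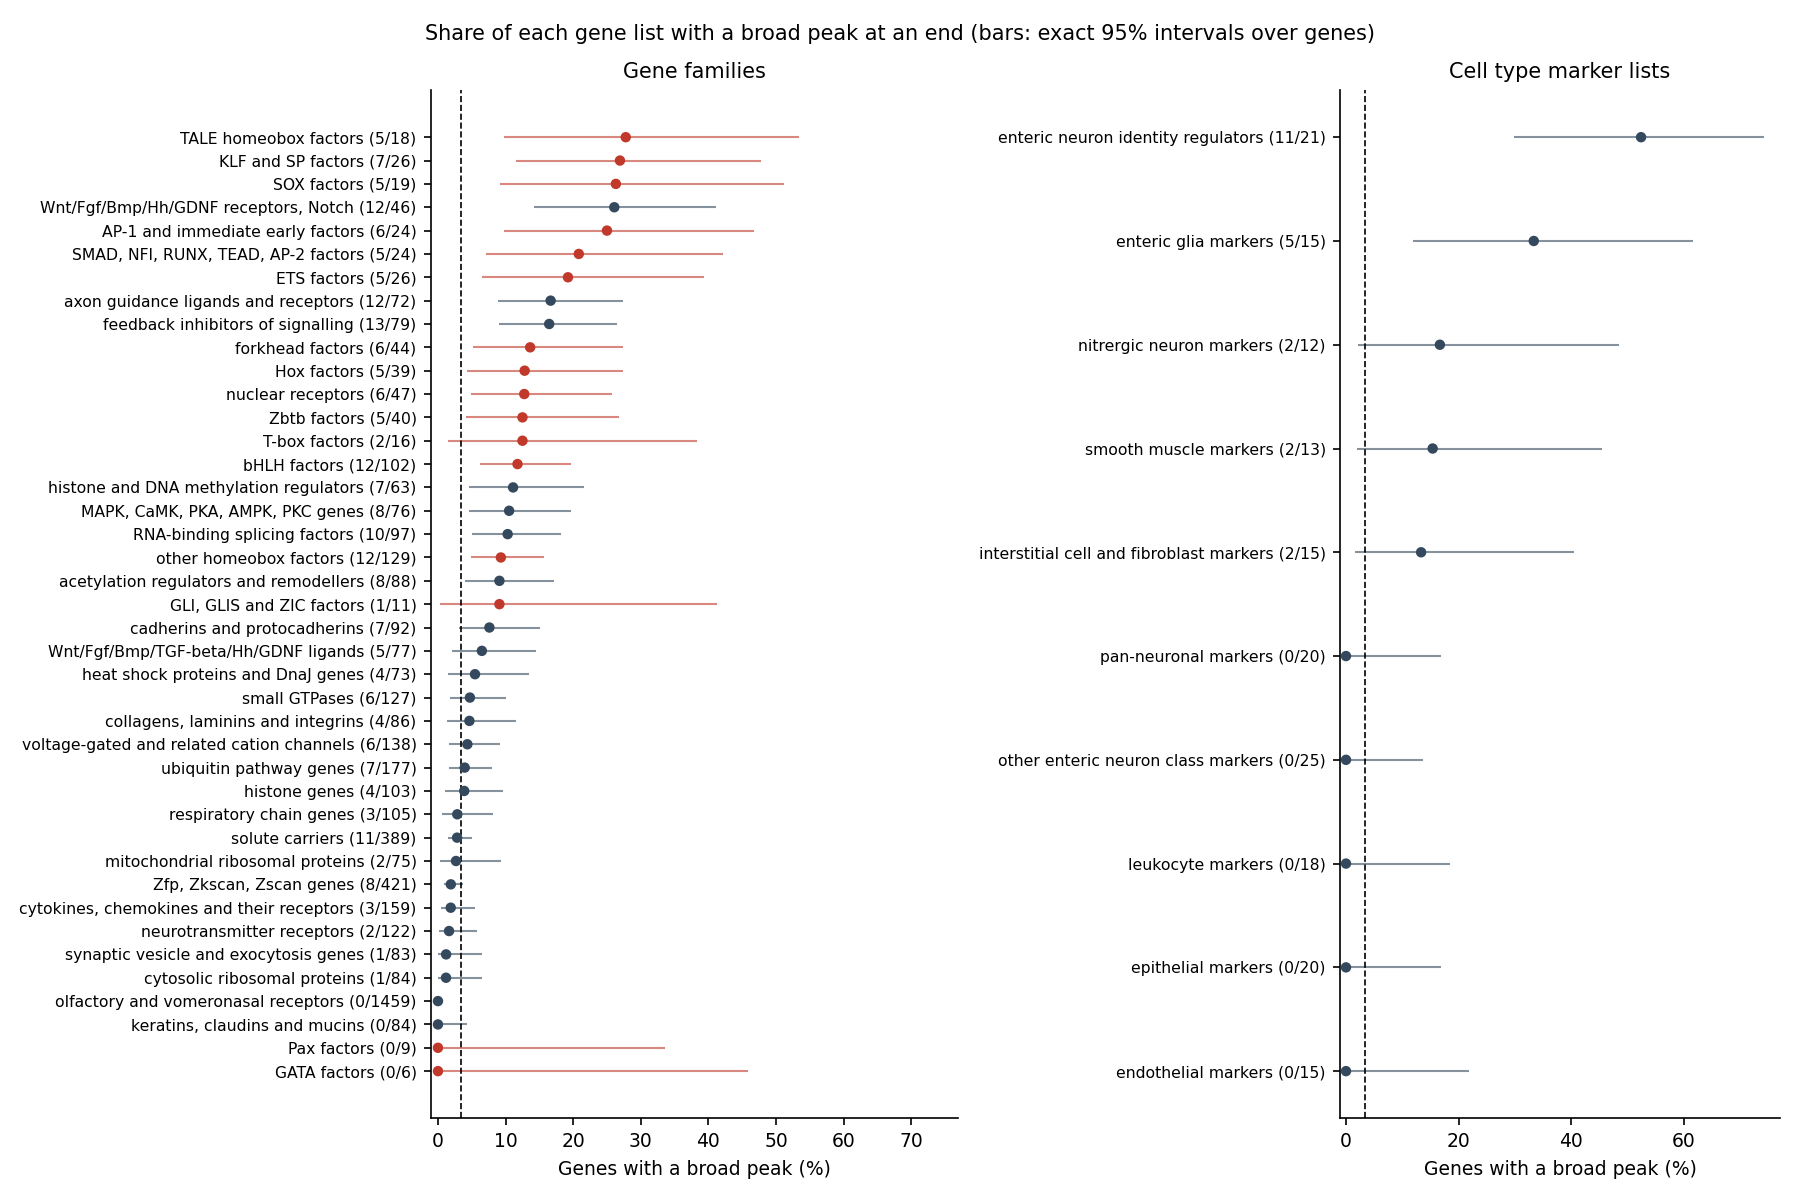
Share of genes with a broad peak at an end, in %, for 41 family lists (left, transcription factor families in red) and 10 cell type marker lists (right), with the count of genes and exact 95% intervals. The dashed line is the 3.43% of all protein-coding genes; TALE (5 of 18), KLF and SP (7 of 26), and SOX genes (5 of 19) lie above it, as do the enteric neuron identity regulators among the markers, at 11 of 21.

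Marker lists of cell types were counted in the same way. Like the other lists, they were chosen with earlier results of these data known, so their shares are descriptions. Regulators of enteric neuron identity had a broad peak at 11 of 21 genes (52.4%, interval 29.8 to 74.3%), and all 21 had a peak of some width. Among the 11 were Meis1, Hand2, Tbx3, Meis2, Gfra2, Etv1, Gfra1, Sox4, Klf7 and Tbx2 (3280 bp), and the medians over the 12 peaks of the list were 5297.5 bp in width and 115 in score. Tbx2 encodes a relative of Tbx3. Pan-neuronal markers include structural and vesicle genes and RNA-binding protein genes such as Elavl3 and Rbfox3. They had 0 of 20 (interval up to 16.8%, which holds the 3.43% of all genes) with a peak at 16. The widest of these peaks was at Ncam1, a cell adhesion gene, with 2772 bp. Nitrergic markers had 2 of 12, Etv1 and Gfra1, which are also in the regulator list. Nos1, the gene named in the label of the sorted cells, had no peak at an end of its model. Markers of other enteric neuron classes had 0 of 25 (up to 13.7%, which also holds that share) with a peak at 7.

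Markers of other cells of the gut wall were also among the genes with a broad peak. Enteric glia markers had 5 of 15 (33.3%, interval 11.8 to 61.6%), all of them regulators or receptors: the neural crest and glial factor genes Sox10, Foxd3, Sox2 and Sox8 and the receptor gene Gpr37l1 (3214 bp). Col28a1, of the same list, had no peak at an end, and S100b (912 bp) and Gfap (980 bp) had narrow ones. Smooth muscle markers had 2 of 13, the tropomyosin genes Tpm2 (3992 bp, score 57.6) and Tpm1 (3289 bp, score 66.4), with a peak of some width at all 13. The others ran from 322 bp at Cnn1 (score 4.14) to 2129 bp at Myl9 (score 126). Those of Myh11 (576 bp, score 11.8) and Actg2 (739 bp, score 8.38) were narrow and scored low, while Smtn (1576 bp) had a score of 156. Interstitial cell and fibroblast markers had 2 of 15, Etv1 and the intermediate filament gene Vim (4109 bp). Epithelial (0 of 20), endothelial (0 of 15) and leukocyte markers (0 of 18) had none, with peaks of some width at 9, 6 and 7 of their genes. These lists are too small to place against the 3.43% of all genes. The part of chromatin from other cells in these peaks was not tested.

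A broad peak lay across the end of a gene model in most cases. Of the 639, 565 (88.4%, interval 85.7 to 90.8%) covered an end, 67 (10.5%) lay wholly inside a model, 5 (0.782%) wholly outside and 2 inside one model and outside another. The share covering an end was 27.4% for peaks under 1 kb, 78.8% for 1 to 2 kb and 88.8% for 2 to 3 kb, so it was no higher above 3 kb than just below. Most of the width lay over the gene, with a median of 83.8% of the width inside models (interquartile range 71.0 to 96.2%). Meis2, Sox10, Tnrc18 (5705 bp), Scd2 (5542 bp) and Zfp462 were the widest of those wholly inside.

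A whole gene model lay under 19 of the peaks (2.97%, interval 1.80 to 4.60%), against 1.64% of peaks of 2 to 3 kb. The widest was that of Hand2, which reached 4547 bp before the start site and 3559 bp after it and so covered the whole model of 3535 bp. Anp32a with Gm20346 (5090 bp), Foxd3, Cebpd with Spidr (4812 bp) and Nkx2-3 followed. The 5 peaks outside every model they touched were at Hand2 (4958 bp), Foxd3 (4080 bp), Cdkn1b (3099 bp), Ssbp4 (3077 bp) and Zbtb7b (3035 bp).

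Strand and start sites were known for every touched gene of 470 peaks (73.6%). Of these, 435 (92.6%, interval 89.8 to 94.8%) held an annotated start site, 399 touched only windows at the start of genes, 64 windows at both ends and 7 only the window at the far end. Peaks of 2 to 3 kb held a start site in 94.0% and touched both kinds of window in 8.90%, against 13.6% of the broad peaks. Peaks wholly inside a model were mostly at internal start sites: 30 of 47 with every gene in the table held one. The 7 far-end peaks were those of Hand2 (the 4958 bp peak), Vmp1 (3833 bp), Tmsb4x (3646 bp), Dlx1 (3484 bp), Cdkn1b (3099 bp), Socs3 (3059 bp) and Tsc22d1 (3054 bp). Those of Tmsb4x and Tsc22d1 still held a start site, inside the model, and that of Vmp1 held the hairpin of the microRNA gene Mir21a. Among peaks with at least 1 gene in the promoter table, 339 held 1 annotated start site, 75 held 2 and 23 held 3.

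Around the start site the peaks were one-sided. Reach was measured in 357 peaks that touched 1 gene and held its start site, from the most upstream start site in the peak. Where a peak holds several start sites, this choice adds width to the downstream side. The median reach was 893 bp upstream (interquartile range 482 to 1345 bp) and 2707 bp downstream (2222 to 3306 bp), with a median of 74.4% of the width downstream. Narrower peaks had 72.1% downstream, with 394 and 1037 bp. Peaks of 2 to 3 kb reached 692 bp upstream and 1643 bp downstream. More width lay downstream than upstream in 326 of the 357 (91.3%, interval 87.9 to 94.0%), against 92.3% of peaks of 2 to 3 kb. The widest peaks differed in this: Amotl2 reached 1013 bp upstream and 6209 bp downstream, and Tgif1 786 and 5889 bp. Hand2 and Fosl2 (3643 and 3408 bp) were the reverse, with more width upstream. Pcdh7 was near balance at 3947 and 4914 bp. Meis1 reached 2584 and 5941 bp and Meis2 2876 and 4561 bp.

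**Figure D3:**
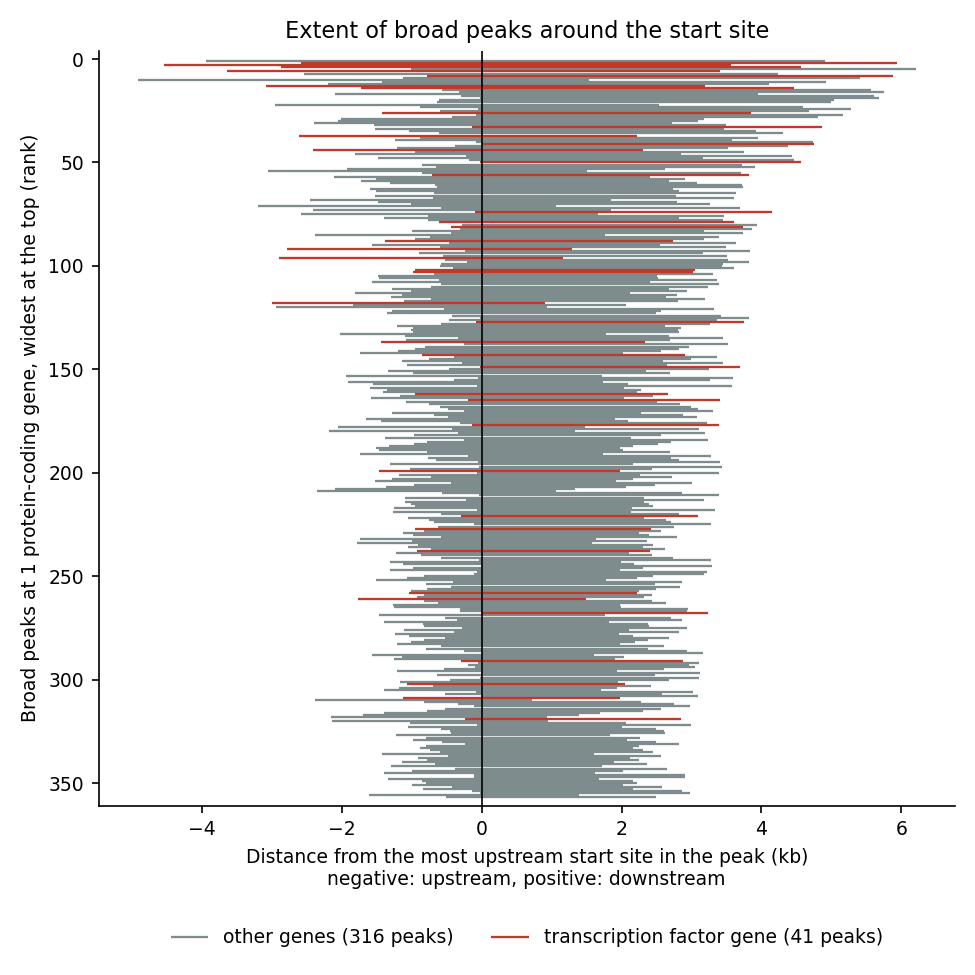
Reach of the 357 broad peaks that touch 1 protein-coding gene and hold its start site, in kb from the most upstream start site in the peak. Peaks are sorted by width, with genes of the 16 transcription factor lists in red. The median peak reaches 893 bp upstream and 2707 bp downstream, and 326 of the 357 have more width downstream.

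Shared ends were about as frequent as among narrower peaks. Of the 639 peaks, 531 touched 1 protein-coding gene, 101 touched 2, 5 touched 3 and 2 touched 4. The 108 shared peaks were 16.9% (interval 14.1 to 20.0%), against 16.2% of all narrower peaks at gene ends, with 20.7% of peaks of 2 to 3 kb, 17.2% of 1 to 2 kb and 13.7% of those under 1 kb. The widest were those of Rhof and Setd1b (8613 bp), Tshz1 and Zadh2 (7376 bp), Nrm and Ppp1r18 (6198 bp), Pcnx3 and Map3k11 (5988 bp) and Hoxb8 and Hoxb7 (5775 bp). Peaks over 4 genes lay at Eme2, Mrps34, Nme3 and Mapk8ip3 (3583 bp) and at Plcb3, Ppp1r14b, LOC114841036 and Fkbp2 (3195 bp). The 5 with 3 genes were at Thoc6, Hcfc1r1 and Tnfrsf12a (4433 bp), at 0610010K14Rik, Rnasek and Alox12 (3681 bp), at Car11, Dbp and Sphk2 (3658 bp), at Lrrc24, C030006K11Rik and Arhgap39 (3181 bp), and at the histone genes H2ac21, H2ac20 and H2bc21 (3463 bp).

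Shared pairs were mostly head to head, that is, transcribed away from a common region. Both strands were known for 75 of the 101 pairs, of which 27 (36.0%) were head to head and apart, with a median gap of 240.0 bp between the models. Another 23 (30.7%) were head to head with models that overlap, as at Pcnx3 and Map3k11. In tandem were 18 (24.0%), as at Nrm and Ppp1r18, and 7 (9.33%) were overlapping or nested in another way. None was tail to tail (0 of 75, interval up to 4.80%). The 1783 pairs under narrower peaks had 43.9%, 23.0%, 24.8% and 5.83% in these classes and 2.47% tail to tail, so each broad share has an interval that holds the narrower one.

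Noncoding gene ends stood more often in broad peaks. Of the 639, 186 (29.1%, interval 25.6 to 32.8%) also overlapped the window at an end of a noncoding gene, against 19.9% of peaks of 2 to 3 kb and 14.7% of all narrower peaks at gene ends. They touched 203 of 17447 noncoding genes, 172 of them long noncoding RNA genes. The share of that kind among all noncoding genes was not compared. Among the 15 widest peaks 7 did so, for example with 4932441J04Rik at Pcdh7, Gm16141 at Meis1, Hand2os1 at Hand2, Tbx3os1 at Tbx3, G630016G05Rik at Meis2 and Gm36856 at Tgif1. To leave the width of the peak out of the count, the distances between gene models were also compared. A noncoding gene ended within 1 kb of an end of 163 of the 750 genes with a broad peak (21.7%, interval 18.8 to 24.9%). For genes whose widest peak was 2 to 3 kb the share was 16.1% (interval 14.7 to 17.5%), and it was 14.2% for 1 to 2 kb, 11.6% for under 1 kb and 5.97% without a peak. Of the 82 transcription factor genes with a broad peak, 24 had such a neighbour (29.3%, interval 19.7 to 40.4%). Of 1005 microRNA hairpins, 7 lay inside broad peaks, a count not compared with narrower peaks. Among them were Mir707 at Tbc1d17 and Akt1s1, Mir7238 at Ankrd10, Mir21a at Vmp1, Mir5135 at Plekhg3, Mir5130 at Kctd12 and Mirlet7e at Spaca6.

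The gap to the next peak had a median of 275 bp for broad peaks and 263 bp for narrower ones at gene ends. The next peak was less than 1 kb away in 388 of the 639 (60.7%, interval 56.8 to 64.5%), against 41.3% of peaks of 2 to 3 kb and 43.4% of 1 to 2 kb, and 74.7% of those under 1 kb, which makes 56.6% of all narrower peaks at gene ends. It was nearer than 100 bp in 145 of the 639 and in 3620 of the 15513 narrower peaks, and the smallest gap between any peaks in the list was 52 bp. A pair of broad peaks stood at 6 genes. At Hand2 they were 55 bp apart and together spanned 13120 bp, at Foxd3 62 bp apart over 9146 bp and at Zbtb7b 192 bp apart over 6391 bp. At Hoxa2 the gap was 1001 bp, at Cdkn1b, a cell cycle inhibitor gene, 3154 bp, and at Tsc22d1 87078 bp, 1 peak at each end of its model. Peaks this close are given as separate in the list, and the widths here are those of the listed peaks.

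**Figure D4:**
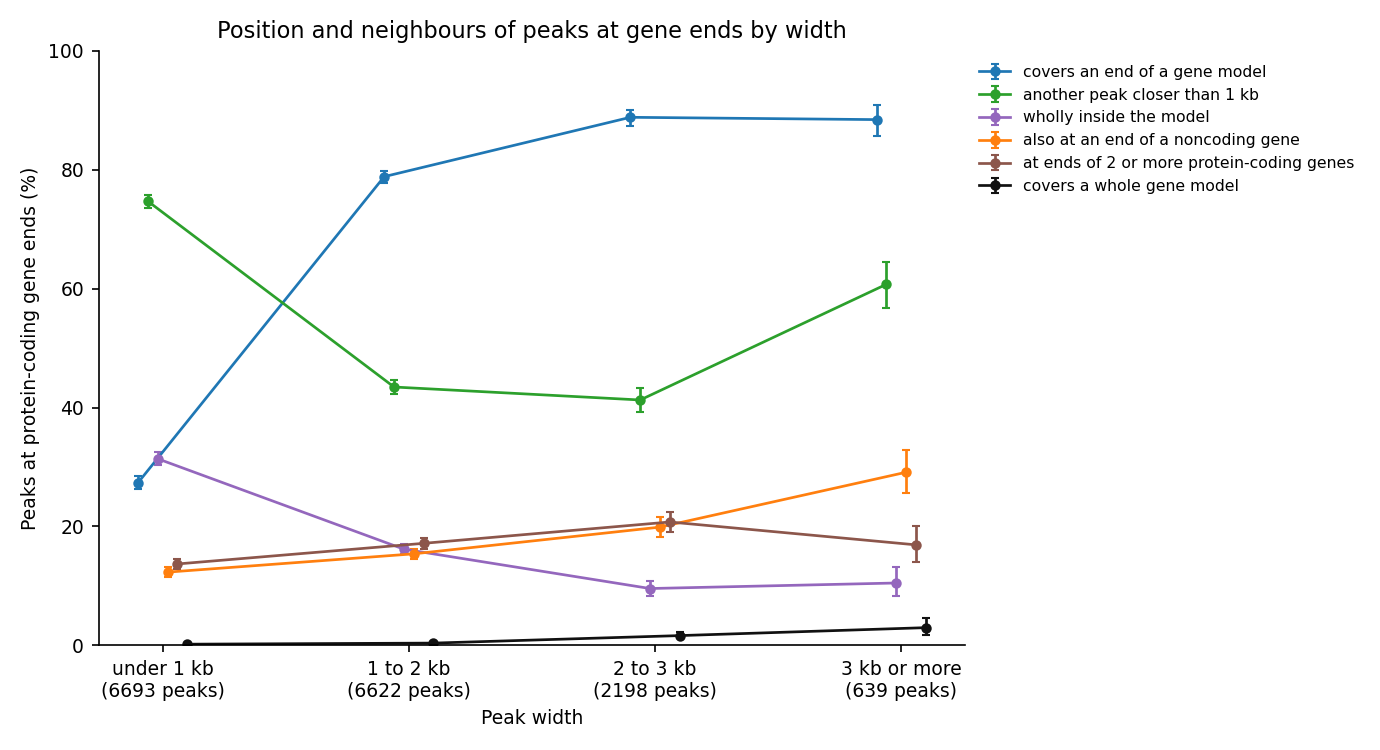
Share of peaks at protein-coding gene ends, in %, that have each feature, in 4 classes of peak width, with exact 95% intervals as bars. Covering an end of a model levels off above 2 kb (88.8% and 88.4%), while a noncoding gene end (19.9% and 29.1%) and another peak closer than 1 kb (41.3% and 60.7%) are more frequent at 3 kb or more than at 2 to 3 kb. Peaks under 1 kb have another peak closer than 1 kb in 74.7%.

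The broad peaks were spread over the autosomes. Their share of the peaks at gene ends ran from 3.14% on chromosome 16 to 5.68% on chromosome 18, where 23 of 405 were broad. Chromosome X had 7 of 580 (1.21%), among them Il1rapl1, Tmsb4x and Bcorl1 (3016 bp), and chromosome Y had 0 of 6. The 7 peaks of chromosome X included the third lowest score of all, that of Il1rapl1.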

How the data were processed

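H3K4me3 was measured in 1 ChIP-seq library of cells labelled as sorted NOS1+ enteric neurons; the input library was not analysed here. Peak calling by MACS2 on paired-end data is per the file headers, and BWA, Picard and the build mm10 are named, without versions or roles, in the submitters' processing notes. The authors' deposited list gives a position and a score per peak; the lowest score was 2.0015, and the scale of the score, the threshold and the handling of duplicates are not stated by any source used here. Depth is unknown, and how far a peak extends depends on it.

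Peaks were matched to RefSeq gene models (GRCm38.p6, the coordinates of mm10) on 21 chromosomes by an overlap of 1 bp with the 1 kb on either side of each end. Start sites and strands came from the RefSeq promoter table, which holds no entry for 25 genes with a broad peak on chromosome 18. Coordinates are 1-based. Shares carry exact 95% Clopper-Pearson intervals, which cover counting error only; with 1 library no test between groups was made. Peaks, gene lists and alternatives were chosen with earlier results of these data known, and the histone list was widened to current symbols after the files were read. Genes named are the 15 widest peaks, the 5 highest and the 5 lowest scores, the 5 peaks on each side of the limit, up to 4 genes per list by width, all markers with a broad peak, and the widest of each position class, except that some of these are counted but not reported here; others are named to complete a count or for contrast, after their values were seen. Python 3.11.15, pandas 2.3.3, NumPy 2.4.6, SciPy 1.17.1 and matplotlib 3.10.9 were used, and the overlap code was tested on simulated peaks. Alternatives were other width limits (2500 and 4000 bp), windows (500 and 2500 bp), peaks that cover the end base, the 50% highest scores, peaks closer than 1 kb merged, and genes whose ends lie over 2 kb from those of any other gene. A start site inside the peak was added after seeing the data.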

Additional observations from a re-analysis of the deposited data

How the results depend on the processing

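The width limit moved most values. At 2500 bp there were 1320 peaks at 1573 genes, with 22.8% of transcription factor genes marked against 7.19% of all genes. At 4000 bp there were 172 peaks at 190 genes, 91.3% (91.279) covered an end, 11.0% were shared, 6.03% of transcription factor genes were marked against 0.868% of all, and the median score was 157.05. Windows of 500 bp and 2500 bp put the share covering an end at 91.3% (91.276) and 84.8%, and requiring the end base makes it 100% by construction. With peaks closer than 1 kb merged there were 1469 regions at 1793 genes, of which 93.1% covered an end and 20.5% were shared, with 24.3% of transcription factor genes marked against 8.19% of all. Leaving out genes with another gene's end within 2 kb left 456 genes, 0.875% shared peaks (by construction few) and a median score of 157.05. With a start site in the peak, chosen after seeing the data, 10.2% were shared. The 50% of peaks with the highest scores moved none of the main values by over their interval. That filter could move little, because it took out few broad peaks and left 3.41% of all genes marked against 3.43% without it. Of the 51 lists, between 42 and 51 stood on the same side of the share of all genes as before in each setting, fewest at 4000 bp. No paired analysis was possible because there was 1 library of each kind. Depth is unknown, so no limit of detection can be given, and a domain cut into pieces at low depth would be missed by the width limit.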
